A study of Sus scrofa with 45 samples.

Results

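CNN1, TPM1, TPM2, TAGLN and ACTA2 are genes of the contractile apparatus of smooth muscle, described here in the blood of miniature pigs fed control or lipid-rich diets. The set was given by gene name, and every non-control probe whose gene name, accession or description in the array files names one of them was taken: 12 probes of the 43603 on the array, which reached 5 of the 5 genes. CNN1 and TPM2 had 1 probe each, TAGLN 2, ACTA2 3 and TPM1 5. Probes described only by similarity to rat alpha tropomyosin do not carry the symbol and were not counted as TPM1. ACTA2 was recognised through the name ACT-4 and TAGLN through SM22A, taken here as the array design's names for them. All ACTA2 and TAGLN probes rest on these synonyms, which were not checked further. Each probe is called here by the last part of its name, such as P070041.

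Smooth muscle shortens when myosin pulls on thin filaments of actin, and the genes named above encode the main protein of those filaments and proteins that lie along them. Tropomyosins run in the groove of the actin helix and govern access of myosin, while calponin and transgelin bind actin from outside. None of these proteins is confined to muscle: platelets, endothelial cells and leukocytes build filaments from related genes, and tropomyosin genes give several transcripts through alternative promoters and exons.

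The study followed male Clawn miniature pigs on control feed, on feed rich in fat and cholesterol (HFCD) or on the latter with sucrose added (HFCSD), and hybridised 1-colour (Cy3) arrays with blood RNA. Whole blood (WB), kept and extracted with the PAXgene system, was taken at 10, 19 and 27 weeks of the diets. White blood cells (WBC), isolated from blood with the LeukoLock system, were sampled at 27 weeks. The 45 arrays make 12 groups, 9 of whole blood with 33 arrays and 3 of white blood cells with 12.

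At 10 weeks each diet had 4 whole blood arrays. At 19 weeks there were 4 for control, 4 for HFCD and 3 for HFCSD, and at 27 weeks 4, 3 and 3. White blood cells had 4 arrays per diet. The labels number the pigs within a group up to 4 but do not tie a number to the same animal across groups, so each p-value measures the spread between these arrays. The paper drew blood from the same pigs repeatedly. Arrays of different times or sample types thus share animals, which the tests without a block count as separate. All white blood cell arrays were scanned on a day of their own, apart from whole blood, so sample type, RNA kit and scan day cannot be told apart. The same holds for 10 against 27 weeks, which were also scanned on separate days. In bulk RNA of this kind, fewer cells of a type and less RNA per cell cannot be told apart either.

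Both sample types carried the signal of blood. The T cell list had 10 of its 14 probes well above background on all 45 arrays, led by CD3D, and the neutrophil list had 6 of 6, led by MMP9. The vessel wall and fibroblast list was led by FN1. Of its 18 probes, 3 were well above background on all arrays and 7 on none, among them those of COL1A1 and COL1A2. DCN, of the same list, was well above background on all arrays of at least 1 group.

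Before any comparison, 2 white blood cell arrays stood apart. Summed intensity of the erythroid list was 435 on replicate 1 of the control group and 468 on replicate 2 of the HFCD group. On the log2 scale this made 8.77 and 8.87, while the other 10 white blood cell arrays lay between 11.75 and 14.79. ACTA2, CNN1, TAGLN and TPM1 P087806 were also at the lowest level of their group on those arrays, so tests of the genes on white blood cells below are followed by values without them. Leaving both out was chosen after the data had been seen.

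How many arrays measured each probe differed widely. TPM2, TPM1 P087806 and ACTA2 P070041 and P367878 were well above background on all 45 arrays, ACTA2 P264827 on 41, CNN1 on 38 and TPM1 P077561 on 38. TPM1 P108241 reached that mark on 29 arrays, TPM1 P179531 on 16, and the TAGLN probes P079791 and P331263 on 13 and 12. TPM1 P248722 was not well above background on any array, with readings from 1.39 to 2.78, and is named again only among the results flagged for a closer look. Levels are log2 of normalized intensity throughout, and levels of the 12 probes are not set against each other; for a list, the gene of the highest reading is named and no more is made of it. Where a group did not measure a probe on all arrays a difference may be given as a bound. It sets the brighter group's mean against the dimmer group's mean in which, on arrays that did not measure the probe, its signal or the lowest signal among probes well above background counts, whichever was higher. A bound concerns group means and takes no account of the spread between arrays.

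ACTA2 encodes the actin of smooth muscle thin filaments. In the control whole blood, probe P070041 read 9.48, 10.23, 8.50 and 11.38 at 10 weeks, 7.05, 10.09, 8.41 and 10.64 at 19 weeks, then 7.91, 10.10, 9.10 and 11.28 at 27 weeks, in the order of the replicate numbers. In HFCD it read 7.62, 6.27, 8.85 and 9.73 at 10 weeks, 5.57, 6.42, 8.56 and 6.14 at 19 weeks, then 6.10, 8.24 and 8.05 at 27 weeks. In HFCSD it read 8.44, 8.96, 7.91 and 10.20, then 8.12, 6.09 and 9.44, then 8.82, 6.98 and 7.12. Most HFCD arrays were dimmer than most control arrays at each time, yet the ranges overlapped at all of them, as the controls themselves had standard deviations of 1.22, 1.64 and 1.43.

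White blood cells spread further. ACTA2 P070041 read 5.54, 11.48, 10.18 and 12.61 in the controls, 7.41, 4.81, 8.32 and 10.59 in HFCD, and 8.95, 7.95, 6.65 and 7.23 in HFCSD. Both extremes of the low end, 5.54 and 4.81, were the arrays that stood apart. Replicate 4 was the brightest in all 4 control groups, white blood cells included. Over the 12 groups the mean of P070041 ran from 9.96 in control white blood cells (standard deviation 3.1) to 6.67 in HFCD whole blood at 19 weeks (1.31), and 0 of the 11 gaps between neighbours in that order exceeded the standard deviation of both neighbours.

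The ACTA2 differences between diets did not pass adjustment at any time. For P070041 in whole blood, HFCD against control gave a log2 change of −1.78 at 10 weeks (standard error 0.769), −2.38 at 19 weeks (0.924) and −2.14 at 27 weeks (0.798). Unadjusted p in limma was 0.0390, 0.0253 and 0.0221, and adjusted p was 0.473, 0.328 and 0.895. HFCSD against the same control arrays gave −1.02, −1.17 and −1.96, with adjusted p of 1.00, 0.639 and 0.123. The other ACTA2 probes gave −1.98 and −1.89, −2.39 and −2.50, and −2.16 and −2.19 for HFCD at the successive times. At 10 and 19 weeks 3 of 4 HFCD arrays measured P264827, so its −1.98 and −2.39 are differences between readings. As bounds it was at least 3.94-fold and 4.99-fold lower. The 3 probes lie on overlapping sequence and are not separate evidence: they share runs of 17 to 40 identical bases, and their r over 33 whole blood arrays was at least 0.989.

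At 19 weeks the scan day enters. Replicate 1 of the controls was scanned on the day of all diet arrays and the other 3 controls on another day. ACTA2 P070041 read 7.05 on the control array of that day and averaged 9.71 on the others, against means of 6.67 in HFCD and 7.88 in HFCSD. Within the day, therefore, HFCD lay 0.38 under the single control and HFCSD 0.83 over it. With scan day as a block the HFCD change was −0.38 (adjusted p = 0.946, in a range over the alternatives of 0.327 to 0.946), and the HFCSD change turned to 0.83.

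**Figure D1:**
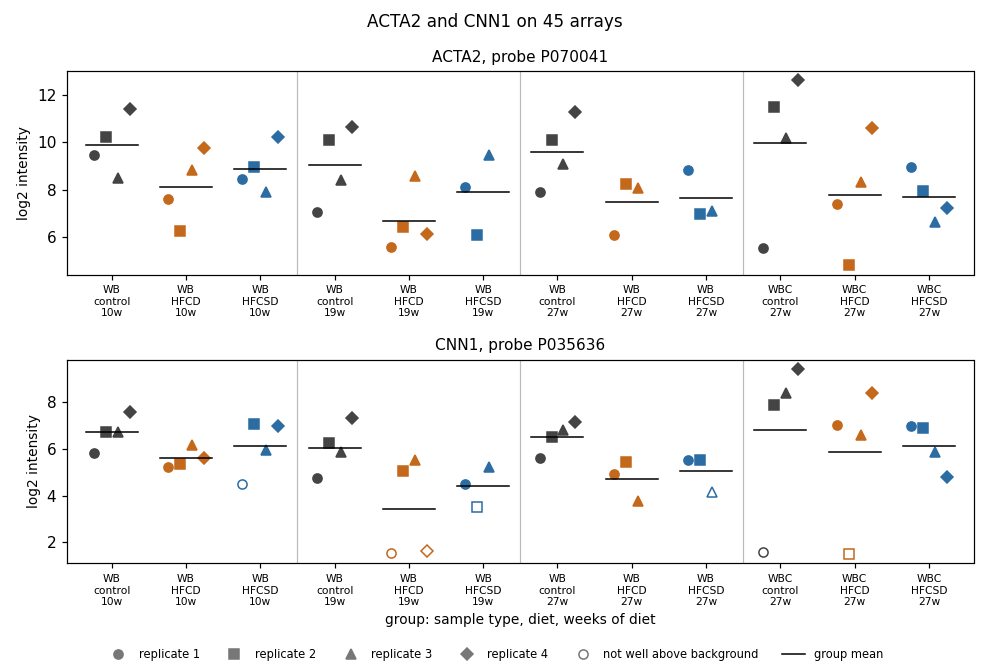
Log2 intensity of ACTA2 (probe P070041) and CNN1 on each of 45 arrays, by sample type, diet and weeks of feeding. Marker shape gives the replicate number, open markers are not well above background and lines are group means; on the control white blood cell array with replicate number 1, ACTA2 read 5.54 and CNN1 1.58, under all other control arrays.

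CNN1 encodes calponin, an actin-binding protein that restrains actomyosin. Control whole blood read 5.82, 6.72, 6.74 and 7.59 at 10 weeks, 4.75, 6.23, 5.87 and 7.31 at 19 weeks, then 5.62, 6.49, 6.81 and 7.14 at 27 weeks. HFCD read 5.23, 5.35, 6.18 and 5.62 at 10 weeks, 1.54, 5.07, 5.53 and 1.64 at 19 weeks, then 4.91, 5.42 and 3.76 at 27 weeks. HFCSD read 4.48, 7.08, 5.94 and 7.0, then 4.48, 3.50 and 5.22, then 5.54, 5.54 and 4.15. The whole blood arrays where CNN1 was not well above background all came from HFCD or HFCSD: 1.54 and 1.64 in HFCD at 19 weeks, and 4.48, 3.50 and 4.15 in HFCSD at 10, 19 and 27 weeks.

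At 27 weeks every HFCD and HFCSD array read lower for CNN1 than every control array, with the brightest HFCSD array at 5.54 and the dimmest control at 5.62. The log2 change was −1.82 for HFCD (standard error 0.499, 95% interval −2.92 to −0.72), and in HFCSD, where 2 of 3 arrays measured it, CNN1 was at least 2.63-fold lower. Neither passed: unadjusted p was 0.00407 and 0.0150, and limma adjusted p was 0.895 and 0.0815. The paper lists CNN1 among its top genes lower with HFCD in whole blood at 27 weeks. Its lists were chosen by fold change and p under 0.05, with no adjustment named. At 10 weeks the HFCD change was −1.12, and in HFCSD CNN1 was at least 1.51-fold lower with 3 of 4 arrays measuring it, with overlapping groups in both. At 19 weeks 2 of 4 HFCD arrays and 2 of 3 HFCSD arrays measured it, and it was at least 2.49-fold and 3.12-fold lower. With scan day as a block the 19-week differences between readings were −1.31 and −0.35.

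Among white blood cells CNN1 read 1.58, 7.90, 8.40 and 9.43 in the controls, 7.03, 1.49, 6.61 and 8.38 in HFCD, and 6.96, 6.91, 5.86 and 4.80 in HFCSD. The readings of 1.58 and 1.49, not well above background, belonged to the arrays that stood apart. Each remaining array of these diets exceeded the highest whole blood reading of its diet at 27 weeks, 7.14 in control and 5.42 in HFCD, while the HFCSD groups overlapped. HFCSD against control in white blood cells gave a difference between readings of −0.69 (adjusted p = 0.911), and −2.44 without both arrays (adjusted p = 0.134, in a range over the alternatives of 0.134 to 1.00).

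TAGLN encodes transgelin, also known as SM22, an actin-bundling protein used as an early marker of smooth muscle. In white blood cells P079791 read 2.25, 4.53, 4.67 and 7.01 in the controls, 2.83, 2.52, 3.98 and 5.87 in HFCD, and 4.09, 3.85, 2.79 and 2.30 in HFCSD. P331263, which shares 41 bases with it, read 1.88, 4.19, 4.95 and 6.93, then 3.08, 1.78, 3.95 and 5.77, then 4.41, 4.10, 2.22 and 2.61. Each probe was well above background on the same 6 white blood cell arrays: controls 2, 3 and 4, HFCD 4, and HFCSD 1 and 2. The brightest array of each diet was thus measured and the arrays that stood apart were not.

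In whole blood TAGLN P079791 was well above background on 7 of 33 arrays and P331263 on 6. At 10 weeks P079791 reached that mark on 1 control array at 5.21, on 3 HFCD arrays at 3.42, 4.39 and 3.71, and on 1 HFCSD array at 4.72. At 19 weeks it did so on control replicate 4, at 3.84, and at 27 weeks on control replicate 2, at 3.32. No HFCD or HFCSD array at 19 or 27 weeks measured either probe. Neither probe was tested for any diet in any sample, since no compared group measured it on all its arrays.

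TPM1 encodes alpha tropomyosin, and its probes did not move together. At 10 weeks P077561 read 4.58, 5.91, 4.85 and 3.76 in control whole blood, then 4.78, 5.56, 3.74 and 3.98 (19 weeks), then 3.16, 4.48, 3.64 and 4.86 (27 weeks). In HFCD it read 4.86, 6.15, 4.87 and 4.17, then 5.86, 5.07, 6.29 and 6.73, then 4.43, 6.13 and 5.44. In HFCSD it read 5.67, 5.85, 5.10 and 4.83, then 5.19, 3.82 and 6.55, then 6.29, 6.88 and 5.99. At 27 weeks all 3 HFCSD arrays lay above all 4 controls, of which replicates 2 and 4 were well above background.

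That difference of TPM1 P077561 with HFCSD at 27 weeks passed adjustment among probes tested, with a difference between readings of 2.36 (limma adjusted p = 0.0235). The probe entered the test through the HFCSD group alone, where it was high and all arrays measured it, while 2 of 4 controls did. With no filter on dim probes its adjusted p was 0.0594 and the call was lost. The call did not survive the loss of single arrays: without control replicate 1, 2 or 3 adjusted p was 0.0674, 0.0524 or 0.0670, and without HFCSD replicate 1 or 2 it was 0.0770 or 0.0718. It was kept without control 4 (0.0123) or HFCSD 3 (0.0303). Over the alternatives adjusted p ran from 0.0157 to 0.232, the highest with each array's share of well above background spots as covariate, where the change was 1.39, and by the methods' t-test it was 0.0820. HFCD against the same controls gave 1.30 at 27 weeks (limma adjusted p = 0.895). Against the controls of those times it gave 1.47 at 19 weeks (0.345) and 0.24 at 10 weeks (0.857). These are differences between readings, as 2 of 4 controls measured the probe at 27 weeks, 3 of 4 at 19 weeks and 2 of 4 at 10 weeks.

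The share of spots well above background differed between the same groups at 27 weeks. Its median was 48.0% in control whole blood, 46.0% in HFCD and 39.6% in HFCSD. Its part in the P077561 result was examined only through the covariate above. With normexp background correction the change was 0.89, at an adjusted p of 0.0233 within the range above.

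In white blood cells P077561 read 3.29, 4.42, 4.55 and 5.30 in controls, 4.02, 3.88, 3.84 and 4.60 in HFCD, and 4.89, 4.55, 4.06 and 4.20 in HFCSD. The HFCSD white blood cell arrays all lay below the HFCSD whole blood arrays, whereas the HFCD groups overlapped, at 4.60 against 4.43. The same HFCSD whole blood arrays entered the diet comparison above, where they were high. The log2 difference of white blood cells from whole blood was −1.96 in HFCSD (standard error 0.460, adjusted p = 0.00135) and −1.25 in HFCD (0.459, adjusted p = 0.0311), where 3 of 4 white blood cell arrays measured it and the call was lost with no filter on dim probes (0.0626). In the controls no group measured the probe on all arrays and it was not tested, with a mean reading of 4.39 in white blood cells and 4.03 in whole blood.

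The HFCSD difference of P077561 held its call without any single array, at adjusted p from 0.00155 to 0.0105, and lost it with the share covariate (−0.93, adjusted p = 0.200, in a range over the alternatives of 0.000245 to 0.200). The HFCD difference kept its call without whole blood HFCD 1 (0.00871) or white blood cell HFCD 4 (0.0246). It lost it without whole blood HFCD 2 (0.194) or 3 (0.0825), or without white blood cell HFCD 1 (0.0578), 2 (0.0636) or 3 (0.0667), and over the alternatives its adjusted p ran from 0.00678 to 0.0887. Whether the difference between sample types itself differed from the controls was tested too, as a difference between readings only, since 2 of 4 whole blood and 3 of 4 white blood cell controls measured the probe: −2.32 for HFCSD (0.627, adjusted p = 0.0622) and −1.61 for HFCD (adjusted p = 1.00), with −1.91 without both arrays (1.00). The HFCSD value passed without whole blood control 4 (0.0266), whole blood HFCSD 3 (0.0400) or white blood cell control 1 (0.0362), and without both arrays that stood apart (0.0273, but 0.0506 with no filter besides), in a range over the alternatives of 0.0183 to 0.388.

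TPM1 P087806 behaved otherwise. In control whole blood it read 7.27, 8.37, 7.44 and 8.52 at 10 weeks, 6.58, 6.28, 6.14 and 5.39 at 19 weeks, then 5.99, 6.71, 7.38 and 6.50 at 27 weeks. HFCD read 6.89, 7.07, 7.22 and 7.53, then 4.36, 6.67, 7.48 and 5.36, then 5.59, 5.76 and 5.49. HFCSD read 7.42, 8.49, 7.52 and 8.36, then 6.98, 5.52 and 6.77, then 7.37, 6.07 and 4.92. The brightest array of each diet came from 10 weeks, and in HFCD and HFCSD the 10-week arrays did not overlap with those of 27 weeks. At 27 weeks the HFCD arrays also lay under all controls, at −1.03 (limma adjusted p = 0.915).

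The change of P087806 from 10 to 27 weeks passed adjustment in HFCSD at −1.83 (standard error 0.559, adjusted p = 0.0359). It did not pass in HFCD at −1.56 (0.0986) or in control at −1.25 (0.0819). Over the alternatives adjusted p ran from 0.0474 to 0.194 in HFCD, the lowest by the methods' t-test, and from 0.0392 to 0.207 in control, the lowest with normexp. P108241, of the same gene, was measured on all 4 HFCSD arrays at 10 weeks (5.0, 5.66, 4.95 and 6.05) and on 0 of 3 at 27 weeks. It was at least 2.18-fold higher at 10 weeks (adjusted p = 0.0294). As P108241 entered the test only through the 10-week group, a call required it to differ, and with every dim probe tested it was not called. These calls were sensitive to single arrays. P087806 kept its call without 10-week replicate 1 (0.0382) or 27-week replicate 1 (0.0237), and lost it without 10-week 2 (0.0767), 3 (0.0525) or 4 (0.105) or 27-week 2 (0.0914) or 3 (0.203). P108241 lost its call without 10-week 2 (0.0526) or 4 (0.0954) or 27-week 3 (0.203).

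Same-numbered HFCSD arrays of 10 and 27 weeks resembled each other in all 3 pairs, so the replicate block was set beside these values. With the block, P087806 had adjusted p = 0.0517 and P108241 0.0424, in ranges over the alternatives of 0.0314 to 0.157 and 0.0231 to 0.144. With 75th percentile centring the values were 0.0529 and 0.0505, with every dim probe tested 0.0653 and 0.0545, and by the methods' t-test 0.157 and 0.144.

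In white blood cells P087806 read 4.46, 9.07, 9.18 and 9.19 in controls, 8.19, 4.61, 6.96 and 8.83 in HFCD, and 8.46, 8.03, 6.21 and 6.18 in HFCSD. The control array at 4.46 and the HFCD array at 4.61 were those that stood apart. P108241 followed it, with 2.99, 6.96, 6.85 and 6.95, then 6.15, 1.61, 4.80 and 6.54, then 5.53, 5.98, 3.96 and 3.70. P179531 also did, with 1.47, 6.14, 6.48 and 6.28 in controls. Across the 12 white blood cell arrays these probes had r of 0.959 to 0.986 among themselves, and 0.704 to 0.805 with P077561. Over the 10 arrays left without those that stood apart, r was 0.928 to 0.977 and 0.573 to 0.673. Across the 33 whole blood arrays the same figures were 0.764 to 0.934 and −0.267 to −0.0683, so in whole blood P077561 kept a course of its own.

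Some tropomyosin probes resemble those of sister genes, which bears on how a signal may be shared between them. The aligned stretches are shown because the results turn on these probes, 5′ to 3′ as in the array files, with capitals for the bases that differ within the aligned stretch. TPM1 P179531 matched the TPM2 probe at 30 of 37 aligned bases, and TPM1 P108241 matched TPM3 P302934 at 36 of 45. Whether either probe took up RNA of the sister gene was not tested. No probe of CNN1, TAGLN or ACTA2 shared more than 9 bases in a row with a probe of another gene compared. Those compared were the genes described here and ACTB, TPM3, TPM4, CNN2 and CNN3. ACTG2, ACTA1, ACTC1 and TAGLN2 were not compared, so likeness to them is not known.
TPM1 P179531: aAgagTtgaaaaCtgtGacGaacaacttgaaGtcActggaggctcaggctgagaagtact
TPM2 P344093: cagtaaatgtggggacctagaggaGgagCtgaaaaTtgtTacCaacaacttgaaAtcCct
TPM1 P108241: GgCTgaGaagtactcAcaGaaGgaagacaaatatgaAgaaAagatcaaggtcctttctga
TPM3 P302934: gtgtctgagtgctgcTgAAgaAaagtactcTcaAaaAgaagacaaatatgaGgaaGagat

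**Figure D2:**
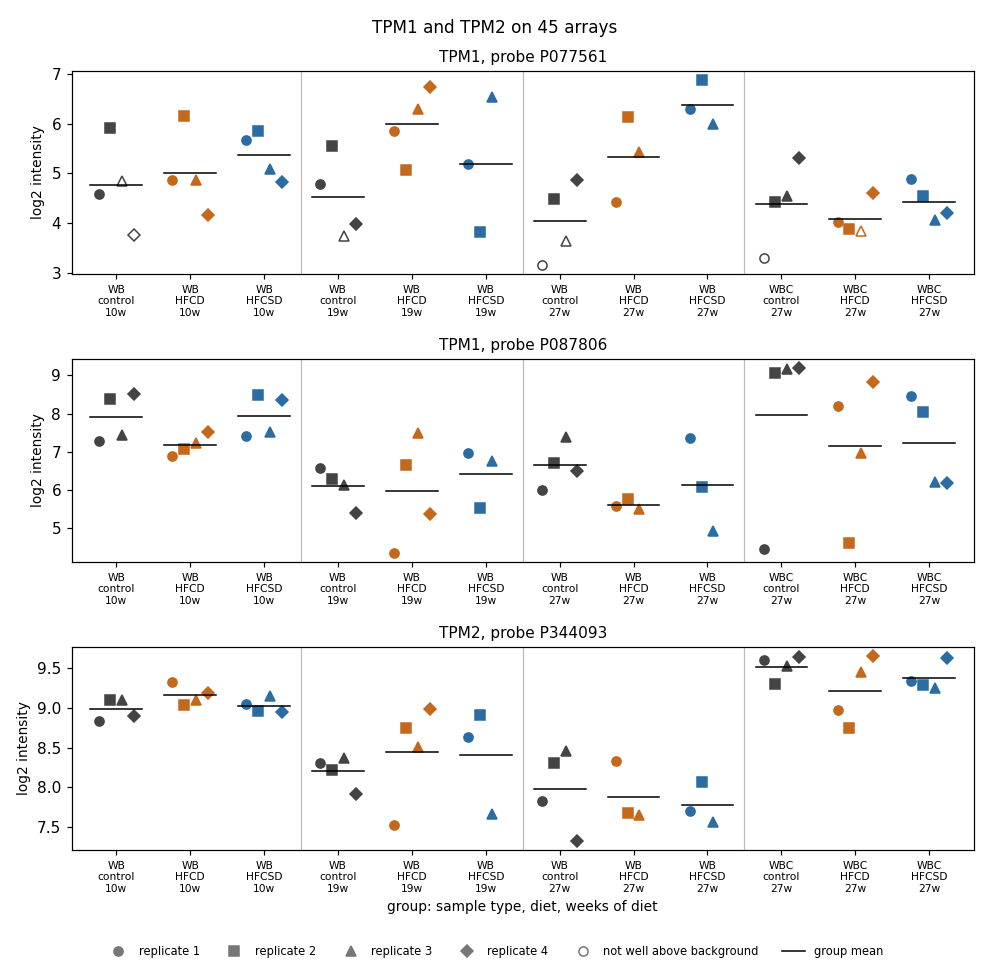
Log2 intensity of TPM1 (probes P077561 and P087806) and TPM2 on each of 45 arrays, by sample type, diet and weeks of feeding. Marker shape gives the replicate number, open markers are not well above background and lines are group means; TPM2 lay between 8.75 and 9.65 in white blood cells and between 7.33 and 8.46 in whole blood at 27 weeks.

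TPM2 encodes beta tropomyosin, the partner of alpha tropomyosin in smooth muscle. At 10 weeks it read 8.83, 9.10, 9.09 and 8.90 in controls, 9.33, 9.04, 9.09 and 9.19 in HFCD, and 9.05, 8.96, 9.15 and 8.95 in HFCSD. At 19 weeks it read 8.31, 8.21, 8.36 and 7.92, then 7.53, 8.75, 8.50 and 8.98, then 8.63, 8.91 and 7.67. At 27 weeks it read 7.82, 8.31, 8.46 and 7.33, then 8.33, 7.68 and 7.65, then 7.70, 8.06 and 7.57. Diets overlapped at each time, while 10 and 27 weeks did not overlap in any diet.

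TPM2 fell from 10 to 27 weeks in all diets: by 1.00 on the log2 scale in control (standard error 0.271, adjusted p = 0.0103), 1.28 in HFCD (0.295, 0.0104) and 1.25 in HFCSD (0.293, 0.00795). The HFCSD call held without any single array, at adjusted p from 0.0134 to 0.0433. The control call was lost without 27-week control replicate 4 (−0.78, adjusted p = 0.0541), and the HFCD call without 27-week replicate 2 (0.0524) or 3 (0.0782). By the methods' t-test adjusted p was 0.0711, 0.0601 and 0.0220, the highest over the alternatives in each diet, with lowest values of 0.00886, 0.00732 and 0.00658. Diet changes of TPM2 ran from −0.20 to 0.24 in whole blood and −0.31 and −0.14 in white blood cells, and none passed adjustment.

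TPM2 was higher in white blood cells: 9.60, 9.30, 9.52 and 9.64 in controls, 8.98, 8.75, 9.45 and 9.65 in HFCD, and 9.34, 9.29, 9.25 and 9.63 in HFCSD. No white blood cell array overlapped with whole blood of its diet at 27 weeks. The log2 difference was 1.54 in control (standard error 0.249, adjusted p = 6.45e-05), 1.32 in HFCD (0.269, 0.000609) and 1.60 in HFCSD (0.269, 6.89e-05), and all held without any single array. Of the arrays that stood apart, the control array read 9.60, inside its group, and the HFCD array 8.75, the lowest of its group and above the HFCD whole blood maximum of 8.33. In the order of the 12 groups TPM2 ran from 9.52 in control white blood cells to 7.78 in HFCSD whole blood at 27 weeks, with the white blood cell groups first, then the 10-week, 19-week and 27-week whole blood groups. In 1 of the 11 gaps between neighbours, HFCD over HFCSD at 10 weeks, the gap exceeded the standard deviation of both.

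The white blood cell to whole blood ratio of each gene at 27 weeks is the ratio of geometric means, averaged over the gene's tested probes. TPM2 stood at 2.91 in control (95% interval 2.03 to 4.16), 2.50 in HFCD (1.69 to 3.69) and 3.03 in HFCSD (2.05 to 4.48). ACTA2 stood at 1.32, 1.38 and 1.15 over 3 probes, and CNN1 at 1.24, 2.26 and 2.09. With the replicate block the log2 differences of the 3 ACTA2 probes turned negative in HFCD and HFCSD, at −0.23 and −0.50 for P070041. The CNN1 values are ratios of readings, as 3 of 4 white blood cell arrays measured it in control and HFCD. In HFCSD 2 of 3 whole blood arrays measured it, and the bound between group means was 2.02-fold higher in white blood cells. ACTA2 P264827 was likewise not measured on 1 HFCD white blood cell array and 1 HFCSD whole blood array. The interval of CNN1 ran from 0.171 to 8.98 in control, 0.267 to 19.2 in HFCD and 0.245 to 17.7 in HFCSD. That of ACTA2 P070041 ran from 0.211 to 7.78 in control, so neither ratio was told from 1. TPM1 stood at 2.51 in control from P087806 alone. In HFCD its 1.1 was the mean of a probe at 0.421 and a probe at 2.89, and in HFCSD its 0.742 that of probes at 0.257 and 2.14, so the gene's ratio hides opposite directions. P108241, not measured in HFCSD whole blood, was left out of it. With its readings counted the TPM1 ratio in HFCSD was 1.19, on the other side of 1.

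Without the arrays that stood apart the picture in control and HFCD changed. The ratio became 3.73 and 2.75 for ACTA2, 4.17 and 6.23 for CNN1, and 5.65 and 1.51 for TPM1, while TPM2 stood at 2.85 and 2.78. The HFCSD ratios were untouched, as no array of that diet was left out. With arithmetic means over all arrays the ratios were 2.49, 2.59 and 1.15 for ACTA2, 3.23, 4.89 and 2.25 for CNN1, and 2.79, 2.52 and 3.02 for TPM2. For TPM1 they were 4.05, 1.33 and 0.743, the last 1.17 with P108241 counted.

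TAGLN gives at most a bound, as its probes were dim in whole blood at 27 weeks. For P331263 in controls the formula of the bound gave 2.01-fold higher in white blood cells, where 3 of 4 arrays measured it. In HFCD 1 of 4 white blood cell arrays measured each probe. The same formula gave 1.12 for P331263 and 1.25 for P079791 there. None of these values is a bound, as the brighter group's mean takes in arrays that did not measure the probe. Without the arrays that stood apart the values became 3.66, 1.73 and 1.68, with 1 of 3 HFCD arrays measuring each probe. Of these 3.66 is a bound, as 3 of 3 control arrays measured P331263. In HFCSD no value exceeded 1. For TPM1 P179531 in HFCD the formula gave 1.52, with 3 of 4 white blood cell arrays measuring it. Without the array that stood apart it was at least 2.83-fold higher in white blood cells. TPM1 P108241 was at least 1.42-fold higher there in HFCSD (adjusted p = 0.192, in a range over the alternatives of 0.0340 to 0.427, the lowest without both arrays).

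**Figure D3:**
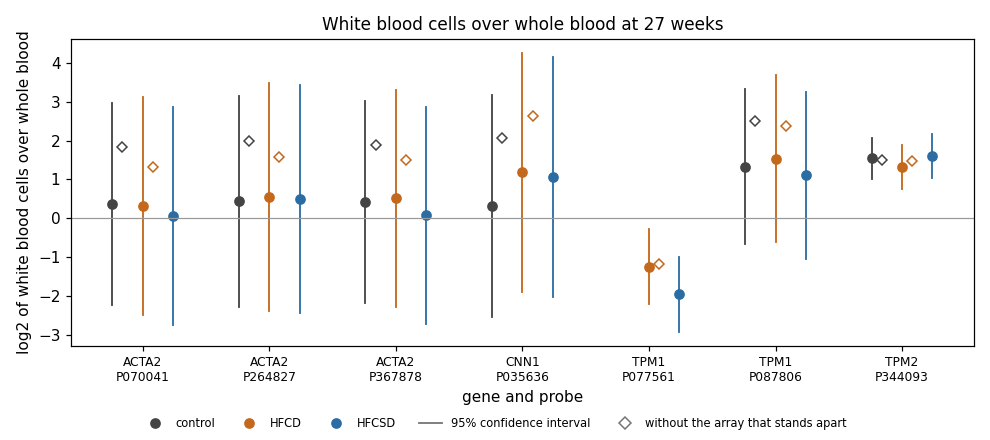
Log2 ratio of white blood cells over whole blood at 27 weeks for the probes tested, by diet, with 95% confidence intervals from limma. Open diamonds give the ratio without the array that stands apart in that diet; the intervals of TPM2 lie above 0 in all diets, those of TPM1 P077561 below 0 in HFCD and HFCSD, and those of ACTA2 and CNN1 span 0.

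Counted over probes, the comparisons of diets yielded few calls. For HFCD against control, limma called 0 of 8 tested probes at 10 weeks, 0 of 7 at 19 weeks and 0 of 7 at 27 weeks, where 0.0281%, 0.0181% and 0.0165% of all tested probes were called. At unadjusted p under 0.05 the numbers were 4, 5 and 5, beside 10%, 12.5% and 5.54% of all tested probes, and 3 of the probes in each count of tested are the overlapping ACTA2 probes. By the methods' t-test there were 0 after adjustment, beside 0 of 17767, 0 of 16615 and 0 of 18188 over all tested probes. Before adjustment that test gave 1, 1 and 2, counts given without their share over all tested probes. The median log2 change of the tested probes was −0.94, −2.38 and −1.82, beside 0.09, −0.04 and −0.03 over all tested probes. For HFCSD against the same controls limma called 0 of 8, 0 of 7 and 1 of 7, where the share over all tested probes was 0.0123%, 0.0175% and 10.6%. The count of 1 of 7 is close to that share. For HFCSD the numbers at unadjusted p under 0.05 were 0, 0 and 5, beside 1.73%, 11.9% and 32.3% of all tested probes. The methods' t-test gave 0 after adjustment, beside 0 of 16198, 0 of 17178 and 142 of 17135 over all tested probes. Before adjustment it gave 0, 0 and 2, again without their share. The median was −0.27, −1.17 and −1.44 beside −0.01, 0.04 and −0.21. At 19 weeks the medians rest on controls of another scan day: against the single control of the diets' day they were −0.38 for HFCD and 0.40 for HFCSD.

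In white blood cells limma called 0 of 5 probes for HFCD and 0 of 8 for HFCSD, where 0.0276% and 0.0366% of all tested probes were called, with 0 at unadjusted p under 0.05, beside 4.72% and 11.4% of all tested probes, and 0 by the methods' t-test in both. After adjustment that test called 3 of 18126 and 0 of 19105 over all tested probes. The medians were −2.05 and −0.95, beside 0.02 and 0.01. The t-test here kept arrays that did not measure a probe, while the paper used only spots flagged present. The paper lists CNN1 and TPM1 among the genes lower in HFCSD white blood cells. Without both arrays that stood apart the calls remained 0, and ACTA2 P070041 and its sister probes gave −2.56 to −2.65 for HFCD (adjusted p = 0.963) and −3.71 to −3.73 for HFCSD (0.116). Over the alternatives adjusted p of P070041 ran from 0.709 to 1.00 and from 0.116 to 0.862.

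White blood cells against whole blood gave 1 call of 6 in control, 2 of 7 in HFCD and 2 of 8 in HFCSD, where 45.3%, 47.5% and 58.9% of all tested probes were called. Without control replicate 1 the control count was 6 of 11, where 43.8% of all tested probes were called. Without both arrays 7 of 11, 6 of 9 and 3 of 8 were called in control, HFCD and HFCSD, where the share over all tested probes was 45.7%, 45% and 61.6%. Those 7 were TPM2, CNN1 (2.06, adjusted p = 0.00902), TPM1 P087806 (2.50, 0.00252), P108241 (0.00199) and P179531 (0.000379), and TAGLN P079791 (0.00391) and P331263 (0.00558). In HFCD they were TPM2, CNN1 (2.64, 0.00290), and TPM1 P077561 (−1.18, 0.0402), P087806 (2.38, 0.00600), P108241 (0.0113) and P179531 (0.000665). P108241, P179531 and the TAGLN probes entered these tests only through white blood cells, once the dim array was left out. A call thus required them to differ, and 6 of 11, 7 of 11 and 6 of 9 are not read against their shares. With both arrays left out and no filter on dim probes, also chosen after the data had been seen, 7, 5 and 3 of 12 were called, where 20.9%, 20.3% and 32% of all probes were. The same 7 were called in control, and P077561 was not in HFCD (0.0817). Whole blood measured P108241 on 3 of 4 control and 2 of 3 HFCD arrays, P179531 on 2 of 4 and 0 of 3, and in control P079791 on 1 of 4 and P331263 on 0 of 4, so no log2 difference is given for them. ACTA2 was not called either way, at adjusted p of 0.0812 to 0.0942 in control without both arrays and up to 0.911 over the alternatives. Over the alternatives adjusted p ran from 0.00902 to 0.932 for CNN1 and from 0.00252 to 0.419 for TPM1 P087806 in control, and from 0.00290 to 0.691 and 0.00600 to 0.372 in HFCD. For the probes tested only without the array or with a looser filter it ran from 0.00199 to 0.261 for P108241, 0.000379 to 0.363 for P179531, 0.00391 to 0.0851 for P079791 and 0.00558 to 0.155 for P331263 in control, and from 0.0113 to 0.512 and 0.000665 to 0.269 for P108241 and P179531 in HFCD.

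For the difference of sample types between diets, limma called 0 of 7 for HFCD and 0 of 8 for HFCSD, where 0% and 1.38% of all tested probes were called. At unadjusted p under 0.05 there was 1 in each, TPM1 P077561, beside 1.34% and 19.3% of all tested probes, and the methods' t-test does not extend to this comparison. From 10 to 27 weeks limma called 1 of 7 in control, 1 of 8 in HFCD and 3 of 7 in HFCSD, all lower at 27 weeks, where 20.7%, 5.59% and 10.4% of all tested probes were called. Of the 3 in HFCSD, TPM1 P108241 entered the test only through the 10-week group, where it was high. A call required it to differ, so 3 of 7 is not read against 10.4%. The control count is near its background, and with 7 or 8 probes 1 call more or less alters the others. The medians were −0.34, −0.78 and −1.25, beside 0.08, 0.01 and −0.05.

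Other genes of the contractile apparatus and its regulators gave 12 genes with 18 probes on the array, of 32 listed. Of these probes 9 were well above background on all arrays and 2 on none, and FHL1 was the brightest. In whole blood limma called 0 of 11 for HFCD at 10, 19 and 27 weeks, beside 0.0281%, 0.0181% and 0.0165% of all tested probes. At unadjusted p under 0.05 limma gave 3, 1 and 1, beside 10%, 12.5% and 5.54%. The methods' t-test gave 3, 1 and 3 before adjustment, without their share. With HFCSD at 27 weeks limma called 3 of 11, beside 10.6% of all tested probes. The methods' t-test called 0 after adjustment, beside 142 of 17135 over all tested probes, and gave 4 before it, without its share. The 3 rose: desmin, DES, an intermediate filament protein, by 2.03 (adjusted p = 0.0186), and smoothelin, SMTN, an actin-binding protein of contractile cells, by 1.39 (0.0255) and 2.56 (0.0210). Like TPM1 P077561, these were lower in white blood cells of HFCSD than in its whole blood, at −2.64 for DES and −1.73 and −3.57 for SMTN. Both comparisons use the same 3 HFCSD whole blood arrays, where these probes were high, so they are not separate evidence. The share covariate was not examined for DES or SMTN. In the platelet list limma called 2 of 9 tested probes higher and 0 lower with HFCSD at 27 weeks, beside 10.6% of all tested probes. In HFCSD white blood cells against whole blood, which uses the same whole blood arrays, it called 2 of 9 lower and 0 higher, beside 58.9%. The part of platelets here was not tested. The median of the contractile list with HFCSD at 27 weeks was 0.06, beside −1.44 for the 7 tested probes of ACTA2, CNN1, TPM1 and TPM2, of which 3 are the overlapping ACTA2 probes.

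FLNA, a crosslinker of actin, and TGFB1, a cytokine that induces contractile genes, were higher in white blood cells of controls, at 2.47 and 3.26 for the FLNA probes and 1.36 for TGFB1. In all, 3 of 12 probes of that list were called higher and 0 lower in control, 3 and 2 in HFCD, and 2 and 3 in HFCSD, beside 45.3%, 47.5% and 58.9% of all tested probes called. Without both arrays they were 6 of 13 and 0 in control, 5 of 12 and 1 in HFCD, and 2 of 12 and 3 in HFCSD, beside 45.7%, 45% and 61.6%, with 2.89 and 3.66 for FLNA and 1.40 for TGFB1 in control. From 10 to 27 weeks 2 of 11 rose and 1 fell in control, and 1 rose and 1 fell in HFCSD, beside 20.7% and 10.4% of all tested probes. In HFCD limma called 0 of 11, beside 5.59% of all tested probes, with 2 at unadjusted p under 0.05, beside 20.5%. The methods' t-test gave 3 before adjustment, without its share.

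Related isoforms of other cells were examined over the same time. TPM3, a tropomyosin of nonmuscle and slow muscle cells, fell from 10 to 27 weeks with 3 of its 4 probes in each diet, by 2.06, 1.50 and 1.43 in control, 1.81, 1.43 and 1.23 in HFCD, and 1.49, 1.28 and 1.09 in HFCSD. In that list of 20 probes, 5 of 17 tested fell in control, 5 of 17 in HFCD and 6 of 18 in HFCSD, beside 20.7%, 5.59% and 10.4% of all tested probes called. By the methods' t-test 3, 1 and 5 were called, beside 1272 of 17140, 154 of 18862 and 1008 of 16461 over all tested probes. The medians of the list were −0.19, −0.72 and −0.61. TPM3 was also called higher in white blood cells than in whole blood, with P302934 at 1.08, 0.81 and 0.71 in control, HFCD and HFCSD. Without both arrays P302934 was called in control (1.06) and HFCSD (0.71) and not in HFCD.

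T cell markers were examined beside TPM2 between 10 and 27 weeks. Of 14 probes, 6 of 12 tested fell in control, 4 of 13 in HFCD and 3 of 12 in HFCSD, where 20.7%, 5.59% and 10.4% of all tested probes were called. By the methods' t-test 1, 0 and 1 were called after adjustment, beside 1272 of 17140, 154 of 18862 and 1008 of 16461 over all tested probes. Before adjustment 7 in each diet had p under 0.05 by that test, a count given without its share over all tested probes. CD3D was the brightest, and 1 CD4 probe was not well above background on any array. The log2 summed level in whole blood was 13.75, 13.42, 13.80 and 13.64 in control at 10 weeks and 13.02, 13.20, 13.42 and 12.92 at 27 weeks. HFCD went with 14.08, 13.43, 13.74 and 13.95 at 10 weeks and 13.27, 12.65 and 13.25 at 27 weeks, and HFCSD with 13.67, 13.22, 13.79 and 13.77, then 12.76, 12.91 and 13.26. The part of T cells in the TPM2 result was not tested.

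The spread among white blood cell arrays was shared with endothelial, platelet and erythroid lists. The endothelial list, led by PECAM1, summed to 10.72, 13.68, 13.93 and 14.42 in controls, 12.79, 11.27, 12.22 and 13.41 in HFCD, and 13.42, 13.01, 11.83 and 11.76 in HFCSD (log2). The platelet list, led by CD9, summed to 14.12, 15.90, 16.02 and 16.08, then 15.13, 13.59, 14.25 and 15.47, then 15.64, 15.21, 13.94 and 13.81. The erythroid list, led by HBE1, summed to 8.77, 14.19, 14.79 and 14.78, then 13.76, 8.87, 13.03 and 14.44, then 14.37, 13.60, 11.75 and 12.62. All were lowest within control and HFCD on the arrays that stood apart, where ACTA2, CNN1 and TPM1 P087806 were lowest too.

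Over the 12 white blood cell arrays, r with the endothelial sum was 0.924 for ACTA2 P070041, 0.930 for CNN1, 0.907 for TAGLN P331263 and 0.973 for TPM1 P087806, and 0.267 for TPM2. With the platelet sum it ran from 0.831 to 0.930 for those 4 genes, and with the erythroid sum from 0.819 to 0.968. The vessel wall and fibroblast sum gave r from −0.179 for TPM2 to −0.348 for TPM1 over the 5 genes, and the skeletal muscle sum from −0.686 for TAGLN to −0.772 for ACTA2. For the 4 genes other than TPM2, the list of other contractile genes gave 0.838 to 0.977 and the related isoforms 0.804 to 0.920. The neutrophil sum gave −0.393 to −0.571 and the monocyte and macrophage sum −0.593 to −0.700. Without the arrays that stood apart the latter sums gave −0.165 to −0.413 and −0.440 to −0.655. Over the 10 arrays without those that stood apart, the endothelial r was 0.889, 0.936, 0.870 and 0.965 for the same genes and 0.235 for TPM2, and for the former 4 the platelet r ran from 0.778 to 0.988 and the erythroid r from 0.807 to 0.959. Well above background on all 45 arrays were 6 of 13 endothelial, 8 of 10 platelet and 2 of 5 erythroid probes, and on none 1, 1 and 2. Markers of these lists differed in presence. KDR was well above background on 1 of 45 arrays, CDH5 P077856 on 6, and P2RY12 and TFRC on none. VWF, NOS3, ITGA2B and PPBP were bright enough to be tested in white blood cells against whole blood without both arrays. What part these cells had in the results was not tested.

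In whole blood, over 33 arrays, r with the endothelial sum was 0.741 for ACTA2 P070041, 0.895 for CNN1, 0.774 for TPM1 P087806 and 0.175 for TPM2. With the list of other contractile genes it was 0.646, 0.861, 0.715 and 0.175, and with the platelet sum 0.479, 0.539, 0.606 and −0.103. With the erythroid sum it was 0.196, 0.230, 0.364 and −0.0241. TPM2 had its highest r with the skeletal muscle sum (0.752), a list led by TPM3, and the T cell sum (0.650). In white blood cells these were −0.697 and −0.502, and −0.333 and −0.320 without the arrays that stood apart. At 27 weeks, where CNN1 read lower in HFCD and HFCSD than in control, the endothelial list summed to 11.87, 12.17, 12.37 and 12.04 in control, 11.59, 11.64 and 11.70 in HFCD, and 12.15, 12.04 and 11.13 in HFCSD. Of its 13 probes, 7 were tested there and limma called 0 in HFCD and HFCSD, beside 0.0165% and 10.6% of all tested probes. At unadjusted p under 0.05 limma gave 0 and 1, beside 5.54% and 32.3%. The methods' t-test gave 2 and 1 before adjustment, without their share. The median change of the 7 probes was −0.44 and −0.31.

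Among 1701 to 1704 named probes measured in whole blood, those most like each gene were found by correlation over the 33 arrays, which share the time points and scan days. For ACTA2 P070041 they were PECAM1, an adhesion molecule of endothelium, platelets and leukocytes, with r of 0.788 and 0.786 for its probes, and CNN1 at 0.782. For CNN1 they were FHL3 (0.891), ALDH2 (0.888) and PECAM1 (0.888). For TPM1 P087806 they were PRDX6 (0.918), ALDH2 (0.890) and PECAM1 (0.883). TPM2 went with CCR7, a homing receptor of T cells (0.923), HMOX2 (0.906) and SLA-7 (0.904). Within 10 weeks alone these were 0.507, 0.338 and 0.211. Within 19 weeks they were 0.865, 0.733 and 0.813, and within 27 weeks 0.730, 0.773 and 0.737. For TAGLN P331263, above background on 6 of the 33 arrays, the highest was DNASE1L1 at 0.692.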

How the data were processed

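Blood RNA of 45 samples was hybridised to 1-colour arrays, and the deposited scanner files give the intensity of each spot, background subtracted and detrended within the array. The submitters' processing notes name Agilent Feature Extraction 9.5.3.1, while the file headers name a later version. The deposited series table holds intensity that the authors quantile normalized and rescaled, with the scale factor not stated, and served as an alternative. Members and lists were chosen with earlier results of these data known.

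Of 45220 spots per array, 1417 control spots were left out, as were 1 to 31 outlier spots per array, and repeated spots were averaged to 43603 probes. Processed intensity was taken to log2 here from the deposited values and quantile normalized over the 45 arrays. Between 35.4% and 53.3% of spots were well above background, which sets how many dim probes were measured. A probe was tested where it was well above background on all arrays of at least 1 compared group. Named genes were the 5 genes, the called probes of fixed lists, the brightest gene of each list quoted and the 3 most alike genes per member. Some further genes are named for presence or for probe sequence. Symbols came from RefSeq accessions for 2032 probes, gene names for 693 and synonyms for 132.

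In all, 16 comparisons were fitted with limma 3.58.1 in R 4.3.3, with p adjusted by Benjamini-Hochberg over all tested probes and a threshold of 0.05. Diets were fitted at 1 time in 1 sample type, sample types over the 6 groups of 27 weeks, and time over the 9 whole blood groups. Python 3.11.15 with numpy 2.4.6 and matplotlib 3.10.9 read files and drew figures, and the fits were tested on simulated data. Intervals are 95% confidence intervals.

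Pairing was checked on 12095 probes. In 1 of 14 comparisons, 27 against 10 weeks in HFCSD, every same-numbered pair correlated over 0.1, and over 49 pairs r ran from −0.473 to 0.730, with 23 over 0.1. The alternatives were 75th percentile centring, normexp background correction, the deposited series table, no filter on dim probes, a weaker presence flag, blocks for replicate, slide and scan day, each array's share of well above background spots as covariate, the methods' t-test, each array left out (89 refits), arithmetic means for the ratios, and, added after seeing the data, both apart arrays left out, with the filter on dim probes and without it. Ranges of adjusted p over the alternatives take in all of those run for the probe except the single arrays left out, which are given apart. The methods' t-test was run here on readings of all arrays compared, while the paper used only spots flagged present.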

Additional observations from a re-analysis of the deposited data

Results flagged for a closer look

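Within groups of 4 arrays, 108 pairs of probe and group were examined for an array set apart from the others by the gap to its neighbour over the range. A test of this kind picks out about 1 in 20 groups by chance, and 5 were picked out here. ACTA2 P264827 was high on replicate 3 of HFCD whole blood at 19 weeks (0.873). On replicate 1 of control white blood cells TPM1 P087806 (0.973), P108241 (0.972) and P179531 (0.931) were low. TPM1 P248722 was high on replicate 4 of HFCSD white blood cells (0.926), where no array measured it above background. No weight was put on these picks themselves. Replicate 1 of control white blood cells is also one of the arrays that stood apart in the results above, on other grounds.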

How the results depend on the processing

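Of the counts of called probes, 140 stayed within 1.5 times under another setting and 18 did not. Of the log2 changes of single probes under all alternatives but single arrays left out, 955 kept their sign and their side of the threshold whatever their size, 14 gained a call, 16 lost it and 17 changed sign, none of those called. Among differences of sample types between diets only TPM1 P077561 was taken in. Of the lost calls 6 came with the methods' t-test and 4 with no filter. Sizes shrank with normexp, as for TPM1 P077561 with HFCSD at 27 weeks (0.89 against 2.36) and CNN1 with HFCD (−0.79 against −1.82). HFCSD against control at 27 weeks, 1 in the results above, was 2 with the weaker presence flag and 0 with the share covariate or the methods' t-test. With no filter it was 1 again, but through P179531 in place of P077561. White blood cells against whole blood were 2 in control with the weaker flag (1 above) and 7 without the arrays that stood apart, with the filter or without. In HFCD (2) they were 1 with no filter or the methods' t-test and 6 without those arrays or 5 without them and the filter, and in HFCSD (2) they were 1 with the share covariate. The HFCSD difference of sample types (0) was 1 with normexp, with the replicate block or without those arrays, and 0 without them and the filter. From 10 to 27 weeks control (1) gave 2 with normexp, where TPM1 P087806 had adjusted p = 0.0392 in a range of 0.0392 to 0.207, and 0 with the methods' t-test. HFCSD (3) gave 1 with 75th percentile centring or the methods' t-test, 2 with no filter or the replicate block, and 4 with the weaker flag. With no filter neither TPM1 P087806 nor P108241 was called, so the 2 take in a probe not among the 3.

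Signs differed for TPM1 P087806 with HFCSD at 10 weeks (−0.0283 with normexp, 0.05 above), HFCD at 19 weeks (0.00876 with normexp, −0.13 above) and HFCSD at 19 weeks (−0.16 with scan day as block, 0.33 above). With that block the ACTA2 probes gave 0.83, 1.09 and 0.87 for HFCSD at 19 weeks. TPM1 P077561 in white blood cells with HFCSD gave −0.0105 with normexp and −0.33 without the arrays that stood apart, with the filter or without (0.04 above), and ACTA2 P070041 gave −0.00613 with normexp for HFCSD white blood cells against whole blood (0.05 above). With the replicate block ACTA2 P070041, P264827 and P367878 gave −0.23, −0.0217 and −0.0211 for HFCD white blood cells against whole blood (0.32, 0.55 and 0.52 above) and −0.50, −0.0803 and −0.47 for HFCSD (0.05, 0.49 and 0.07). TPM2 with HFCSD at 27 weeks gave 0.30 with the share covariate (−0.20 above).

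Leaving out 1 array, counts ran from 0 to 1 for HFCSD at 27 weeks, 1 to 6, 1 to 2 and 2 to 2 for white blood cells against whole blood in control, HFCD and HFCSD, 0 to 1 for the HFCSD difference of sample types, and 0 to 1, 0 to 1 and 1 to 3 over time in control, HFCD and HFCSD. The other counts were 0 throughout. Scan day as a block could be run only for whole blood at 19 weeks and the methods' t-test not for differences of sample types. The scale itself moved the median of all probes in white blood cells against whole blood, by 0.14 in control and 0.19 in HFCD with 75th percentile centring and by −0.19 in HFCSD with normexp, and by −0.15 with normexp in the HFCSD difference of sample types.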
